A study of Mus musculus with 6 samples.

Results

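Endothelial cells line the vessels of the dorsal root ganglion (DRG), and 10 genes that mark them are described here in adult (P60) Meis1cko and control DRGs. The genes are Pecam1, Tek, Tie1, Kdr, Flt1, Egfl7, Cldn5, Erg, Eng and Vwf, and all 10 were found among the 18193 genes that have a probe set of their own on the array. They are covered by 18 of the 45037 probe sets tested, 6 genes by 1 probe set and 4 by several, and the brightest one stands for a gene except where another is stated. Meis1cko mice carry a floxed Meis1 allele, from which Cre recombinase under the Nav1.8 promoter region removes an exon that encodes part of the homeodomain, and this Cre is active in most nociceptive neurons. Endothelial cells are not the cells in which this Cre is described to act. The labels name the other group control and do not give its alleles. Total RNA of cervical, thoracic and lumbar DRGs was hybridized to 1 Affymetrix mouse genome array per mouse, 3 mice per genotype, so that every value is a mixture of neurons, glia, vessels, connective tissue and blood cells. In such bulk RNA, fewer endothelial cells and less RNA per endothelial cell cannot be told apart.

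As background, endothelial cells grow and persist under ligands made by their neighbours. Vascular endothelial growth factors bind the receptors encoded by Kdr and Flt1, and angiopoietins bind the receptor encoded by Tek, which pairs with Tie1. The cells are held together by adhesion and tight junction proteins such as those of Pecam1 and Cldn5, and ETS factors such as Erg maintain their identity. DRG capillaries are known to be more permeable than those of the brain or of peripheral nerve. Meis1 itself is known from constitutive knockout embryos to be needed for vascular and blood development, which is a function in cells other than nociceptors.

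The deposited values are normalized intensities on a linear scale, with array medians between 62.5 and 65.5, and limma was run on their log2. Array number limits the precision of each value. The brightest probe set of Meis1 measured 66.0, 72.1 and 64.2 in Meis1cko replicates 1 to 3. In control replicates 1 to 3 it measured 110, 144 and 90.2. The genotypes did not overlap, as for 3.43% of all probe sets in that direction. Meis1cko minus control was -0.74 (log2, SE 0.18, unadjusted p = 0.0043 in limma). Even Meis1 did not reach an adjusted p under 0.05, unpaired or with the replicates paired by number (paired adjusted p = 0.16 in limma). On its 2 dimmer probe sets Meis1cko minus control was 0.13 and -0.16 (log2). The position of these probe sets against the deleted exon was not analysed here. The replicate 3 array of each genotype stands apart from the other 4. The log2 difference between 3′ and 5′ control probe sets of Actb, a sign of RNA length, was 0.44 and 0.42 on the replicate 3 arrays of Meis1cko and control and between 1.23 and 1.66 on the others.

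None of the 10 endothelial genes passed the adjusted threshold between Meis1cko and control DRGs, and the genotypes overlapped for all of them but Egfl7. At an adjusted p under 0.05 in limma over all 45037 probe sets, 0 of the 10 genes were higher and 0 were lower, where 0.0155% of all probe sets passed in either direction. The count was also 0 at an unadjusted p under 0.05 in limma (2.32% of all probe sets) and in the methods' t-test (3.04%). With the replicates paired by number, 0 genes passed the adjusted threshold (0.0822% of all probe sets) and 1, Tek, had an unadjusted p under 0.05 (6.99%). The log2 fold changes, Meis1cko minus control, lay between -0.19 for Tie1 and 0.31 for Tek, with a median of 0.04 beside -0.01 for all probe sets, and 6 were above 0 and 4 below (45.8% of all genes lay above 0).

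A miss of the threshold does not show that the levels are equal, and the intervals say what size of difference remains possible. The 95% intervals of all 10 genes lay inside a 2-fold difference in either direction, from a lowest bound of -0.97 for Vwf to a highest of 0.87 for Tek, as did those of 96.5% of all genes. For 3 genes, Flt1, Egfl7 and Erg, the interval also lay inside a 1.5-fold difference (73% of all genes). These intervals are not adjusted for the number of genes. Summed over the 10 genes, the intensity ran from 1667 to 1934 in Meis1cko mice and from 1662 to 1907 in control mice, ranges that overlap almost entirely. This sum weighs the brightest genes most. Of these, Egfl7 (control mean 616, Meis1cko mean 547) and Cldn5 (328 and 396) moved in opposite directions.

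**Figure D1:**
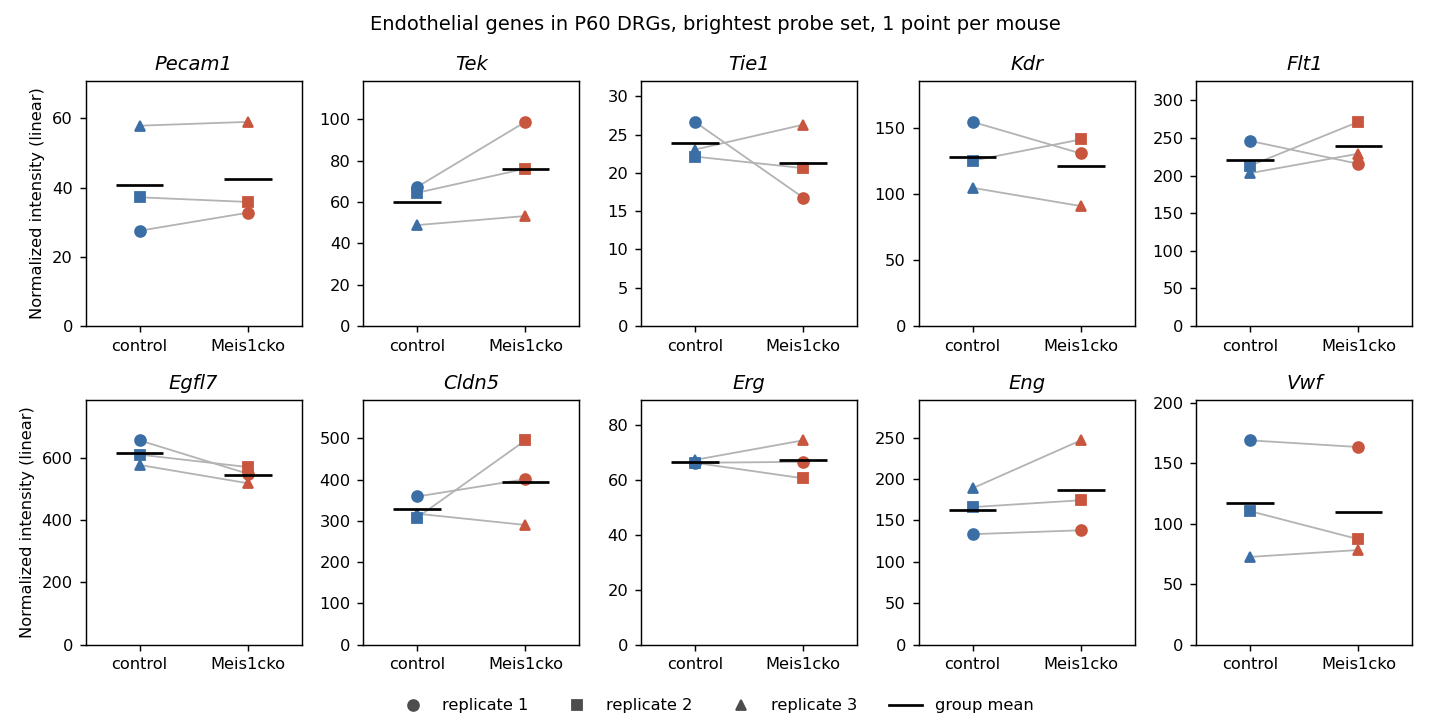
Normalized intensity on a linear scale from 0 (vertical axis) of the brightest probe set of each of 10 endothelial genes in control and Meis1cko mice, 1 point per mouse, with lines joining mice of the same replicate number and bars at the group means. The genotypes overlap for each gene except Egfl7, whose Meis1cko mice lie at 520 to 572 and control mice at 578 to 658.

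**Figure D2:**
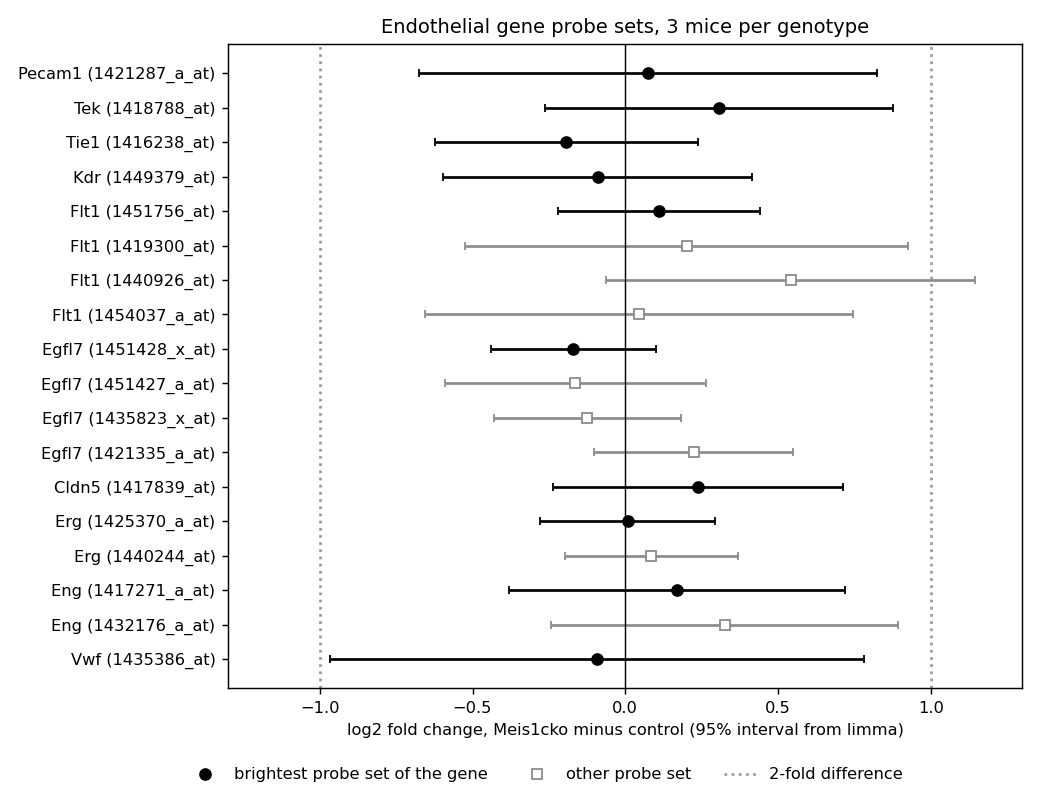
Log2 fold change (horizontal axis, Meis1cko minus control, bars the 95% interval from limma) of the 18 probe sets of the endothelial genes. All 18 intervals include 0, and the interval of 1 dimmer probe set of Flt1, up to 1.15, reaches past the dotted line of a 2-fold difference.

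Tek encodes the angiopoietin receptor TIE2 of endothelial cells. Its intensity was 98.8, 76.2 and 53.2 in Meis1cko replicates 1 to 3 and 67.3, 64.5 and 48.8 in control replicates 1 to 3. Within each replicate number the Meis1cko mouse was the higher one, by 0.55, 0.24 and 0.12 on the log2 scale. The groups as wholes overlapped because Meis1cko replicate 3 lay below control replicates 1 and 2. The log2 fold change was 0.31 (SE 0.24, 95% interval -0.26 to 0.87), with an adjusted p of 1 in limma. With the replicates paired, Tek had the smallest p of the 10 genes (0.037), an SE of 0.12 and an adjusted p of 0.685 in limma. Of all probe sets, 13.2% were higher in all 3 pairs, and 30.1% of all genes moved one way in all 3 pairs, as did 3 of the 10, Tek, Eng and Egfl7.

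Tie1 encodes the orphan partner of TIE2, and its probe set was dim, at percentile 25.3 of all probe sets. It measured 16.8, 20.6 and 26.3 in Meis1cko and 26.7, 22.1 and 23.0 in control replicates 1 to 3. The lowest and the second highest mouse were both Meis1cko, and the log2 fold change of -0.19 (SE 0.18, 95% interval -0.62 to 0.24) changed sign to 0.04 without the replicate 1 arrays. Its control mean of 23.9 lay near the 25th percentile of the arrays (20.8 to 22.6).

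Angpt1, the agonist of the TIE2 receptor that mural cells and other non-endothelial cells make, had intensities of 113, 74.1 and 47.4 in Meis1cko and 129, 109 and 79.1 in control replicates 1 to 3. It was lower in the Meis1cko mouse of each pair (15.7% of all probe sets), for a difference of -0.50 on the log2 scale (SE 0.33, limma adjusted p of 1 unpaired and 0.426 paired). The dimmer probe set of Angpt1 had -0.27 but was not lower in each pair, with 0.10 in replicate 2. Angpt2, the ligand that endothelial cells release themselves, had -0.09 (SE 0.17). Angpt4, another ligand, had 0.15 (SE 0.11) with the genotypes apart (3.21% of all probe sets in that direction), and -0.07 on its other probe set. Among 12 measured vascular endothelial growth factor and angiopoietin ligands and receptors outside the 10 genes, 0 passed in limma, higher or lower, with p adjusted or unadjusted, and their median log2 fold change was 0.03. With the replicates paired, 1 of them, Angpt1, was lower at an unadjusted p under 0.05 (6.99% of all probe sets in either direction).

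Kdr encodes VEGFR2, the main signalling receptor for vascular endothelial growth factor. Its intensity was 131, 141 and 90.7 in Meis1cko and 154, 125 and 104 in control replicates 1 to 3, and the mice of both genotypes were interleaved. Meis1cko minus control was -0.09 (log2, SE 0.22, 95% interval -0.60 to 0.41), and it was 0.10 without Meis1cko replicate 3.

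Flt1 encodes VEGFR1, which binds the same ligand tightly and also exists as a secreted decoy, and it has 4 probe sets. On the brightest, the mice measured 216, 271 and 229 in Meis1cko and 246, 213 and 203 in control replicates 1 to 3, a log2 fold change of 0.11 (SE 0.14, 95% interval -0.22 to 0.44). The highest mouse was Meis1cko replicate 2 and the lowest control replicate 3. On the other 3 probe sets Meis1cko minus control was 0.20, 0.54 and 0.04 (log2), all with intervals that include 0. The second of these measured 95.2, 78.8 and 60.5 in Meis1cko and 66.2, 59.9 and 37.1 in control mice. It was higher in the Meis1cko mouse of each pair (13.2% of all probe sets). With the replicates paired it had the smallest adjusted p of the 18 probe sets, 0.251 in limma. Vegfa, the ligand gene, differed by 0.01 (log2, SE 0.11), and Flt4, the receptor gene of lymphatic endothelium, 0.14 (SE 0.12).

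Eng encodes endoglin, a co-receptor of endothelial cells for ligands of the BMP and TGF-beta family. It measured 138, 174 and 247 in Meis1cko and 133, 166 and 189 in control replicates 1 to 3, so that the mice followed the replicate numbers in both genotypes. The Meis1cko mouse was higher in each pair, by 0.05, 0.07 and 0.39 on the log2 scale, and the log2 fold change was 0.17 (SE 0.23, 95% interval -0.38 to 0.72). It fell to -0.05 without Meis1cko replicate 3. The dimmer probe set had 0.32 (SE 0.24) and ran the other way across the arrays, with its lowest value, 58.9, in control replicate 3. Of 17 measured genes of the BMP and TGF-beta receptor arm, 0 passed in limma, higher or lower, with p adjusted or unadjusted. Those with the smallest p were the receptor gene Bmpr2 at 0.13, the target gene Id1 at 0.13 and the inhibitory Smad gene Smad7 at 0.19.

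Pecam1 encodes the adhesion molecule CD31, which endothelial cells share with platelets and some leukocytes. Its single probe set measured 32.7, 35.9 and 59.0 in Meis1cko and 27.5, 37.2 and 57.9 in control replicates 1 to 3. Mice of the same number were close to each other, and the replicate 3 mice of both genotypes were the highest. Between genotypes the log2 difference was 0.07, with an SE of 0.32 unpaired and 0.11 paired, and the paired 95% interval ran from -0.18 to 0.33.

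Cldn5 encodes claudin-5, the tight junction protein of barrier endothelium. Its intensity was 401, 495 and 290 in Meis1cko and 359, 308 and 317 in control replicates 1 to 3. Meis1cko mice held both the highest values and the lowest one. The log2 fold change was 0.24 (SE 0.20, 95% interval -0.24 to 0.71), with an adjusted p of 1 in limma. Without both replicate 3 arrays it was 0.42 with an unadjusted p of 0.0388 in limma, without Meis1cko replicate 2 it was 0.06, and without both replicate 2 arrays 0.01, so its size rests on single arrays. Cdh5, which encodes VE-cadherin, the adherens junction protein of endothelium, had -0.03 (SE 0.26). Of 14 measured junction genes outside the 10, 0 passed in limma, higher or lower, with p adjusted or unadjusted. The smallest p belonged to the gap junction gene Gja1, which glia and fibroblasts also express, at -0.59 (SE 0.26) and with p under 0.05 on 2 of its dimmer probe sets, followed by the tight junction genes Cldn1 at -0.43 and Ocln at -0.09. Gja1 was also the 1 junction gene with a paired unadjusted p under 0.05 in limma (6.99% of all probe sets in either direction), and it was lower.

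Egfl7 encodes a protein that endothelial cells secrete into their matrix. Its brightest probe set measured 550, 572 and 520 in Meis1cko and 658, 612 and 578 in control replicates 1 to 3. It was the only one of the 10 genes whose genotypes did not overlap, each Meis1cko mouse below each control mouse, where 3.43% of all probe sets lay apart in that direction and 6.64% in either. The log2 fold change was small, -0.17 (SE 0.12, 95% interval -0.44 to 0.10), with an adjusted p of 1 in limma while an exact, two-sided permutation test gave p = 0.1, its minimum at this group size. The next probe sets in brightness had -0.16 and -0.12 and the dimmest 0.22, and the genotypes overlapped on all 3 of them. The name of the brightest probe set ends in x_at, the mark of probes that can bind other transcripts too.

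Vwf encodes von Willebrand factor, which endothelial cells store for haemostasis and which is most abundant in larger vessels. Its intensity was 163, 87.1 and 78.1 in Meis1cko and 169, 110 and 72.4 in control replicates 1 to 3. Mice of replicates 1 and 3 again lay close together, with replicate 1 high and replicate 3 low in both genotypes. In replicate 2 the Meis1cko mouse was lower, by -0.34 on the log2 scale. The log2 fold change was -0.09 with the largest SE of the 10 genes, 0.37, which was 0.12 with the replicates paired.

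Erg encodes an ETS factor of endothelial identity. It measured 66.6, 60.6 and 74.4 in Meis1cko and 66.3, 66.3 and 67.3 in control replicates 1 to 3. The control mice were nearly equal and the Meis1cko mice lay on either side of them. Meis1cko minus control was 0.01 (log2, SE 0.12, 95% interval -0.28 to 0.29), and the other probe set had 0.09 (SE 0.12).

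Promoter sequence was available from RefSeq (GRCm38.p6) for 8 of the 10 genes, all but Pecam1 and Vwf, with 12 start sites. The stretch of 250 bases before each start was searched on both strands for TGACAG, the core that Meis proteins are known to bind. It was found before 4 of the 12 starts, in Tek, Cldn5, Egfl7 and Erg, beside 15.9% of all 32851 such stretches. AGGAAG, a form of the ETS core that factors such as Erg bind, was found before 6 of the 12 starts (29.5% of all), in Egfl7, Eng, Erg, Flt1 and Tie1. TGACAG ends and AGGAAG begins with AG, so a match of each can share letters, and this was not checked. Tek, Cldn5 and Egfl7 are shown because they hold a Meis core and had the smallest p of the 10 genes in limma, and capitals mark the core, read as CTGTCA where it lies on the other strand. The core starts 185, 135 and 138 bases before the start site in Tek, Cldn5 and Egfl7. The arrays hold no measure of binding, so these matches are a description.
Tek, chr4:94739039-94739288, plus strand: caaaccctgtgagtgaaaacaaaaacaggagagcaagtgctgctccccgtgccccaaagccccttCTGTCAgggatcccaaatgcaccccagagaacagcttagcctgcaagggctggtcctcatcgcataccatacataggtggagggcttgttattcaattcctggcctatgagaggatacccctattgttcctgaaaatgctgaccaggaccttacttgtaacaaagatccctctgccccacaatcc
Cldn5, chr16:18776597-18776846, plus strand: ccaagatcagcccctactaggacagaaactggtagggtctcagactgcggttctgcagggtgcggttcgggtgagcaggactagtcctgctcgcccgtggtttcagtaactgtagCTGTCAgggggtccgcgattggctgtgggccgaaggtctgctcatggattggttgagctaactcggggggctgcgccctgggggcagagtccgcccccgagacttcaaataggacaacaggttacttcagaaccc
Egfl7, chr2:26580833-26581082, plus strand: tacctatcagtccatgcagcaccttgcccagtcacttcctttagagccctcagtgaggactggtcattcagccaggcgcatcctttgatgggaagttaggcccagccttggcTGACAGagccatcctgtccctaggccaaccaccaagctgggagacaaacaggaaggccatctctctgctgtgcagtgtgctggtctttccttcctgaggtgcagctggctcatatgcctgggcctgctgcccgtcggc

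Across the 6 arrays the 10 genes did not rise and fall together. Control replicate 1 held the highest value of 4 genes and Meis1cko replicate 3 that of 3 genes, while Meis1cko replicate 3 and control replicate 3 each held the lowest value of 3 genes. Against the other mice of their genotype, the replicate 3 mice of both genotypes were higher for 3 genes, Pecam1, Erg and Eng, and lower for 6. The sizes were 0.86 and 0.78 on the log2 scale for Pecam1 in control and Meis1cko, -0.91 and -0.61 for Vwf, -0.43 and -0.70 for Tek, and -0.41 and -0.58 for Kdr. These differences between mice of 1 genotype were larger than any log2 fold change between genotypes among the 10. Each sets a single array against the others of its genotype, so it varies more than a fold change between group means. Other genes moved less, such as Erg (0.02 and 0.23 in control and Meis1cko) and Egfl7 (-0.13 and -0.11). The replicate 3 arrays had the smaller 3′ to 5′ difference of the Actb control, and the part of that in these values was not tested. Of all 18193 genes, 73.3% moved the same way on both replicate 3 arrays.

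**Figure D3:**
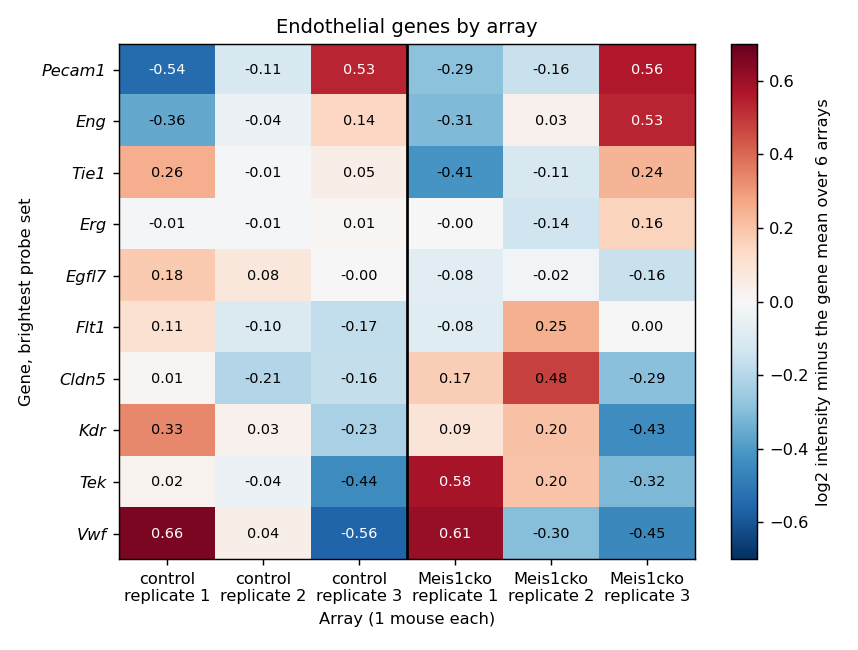
Log2 intensity of each endothelial gene (rows, brightest probe set) on each of the 6 arrays (columns) minus the mean of that gene over the 6 arrays, by colour and number. Replicate 3 arrays of both genotypes lie high for Pecam1 and Eng and low for Vwf, Tek and Kdr, and the columns of control and Meis1cko do not differ as blocks.

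Other endothelial genes gave a more divided picture, although none passed the adjusted threshold of limma. Sox17, which encodes a transcription factor of arterial endothelium, had intensities of 216, 202 and 149 in Meis1cko and 95.1, 88.3 and 88.1 in control replicates 1 to 3, a difference of 1.04 on the log2 scale (SE 0.16, limma adjusted p = 0.434 unpaired and 0.0539 paired). The study chose Sox17 on these arrays, so its direction is not independent evidence, and its dimmer probe set had 0.43 (SE 0.23). Its relative Sox18 measured 106, 89.6 and 128 in Meis1cko and 70.3, 62.0 and 80.9 in control mice, a log2 fold change of 0.60 (SE 0.17). Tbx3, which other cells also express, had 0.40 (SE 0.16). Of 18 measured endothelial transcription factor genes outside the 10, these 3 had an unadjusted p under 0.05 and were higher (1.15% of all probe sets), and together with Foxo1 at 0.20 they were the 4 whose Meis1cko mice all lay above the controls (3.21% of all). The list median was 0.03, and Foxo1 was named after its values were seen.

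Adgrl4, which encodes an adhesion receptor of endothelial cells, measured 214, 130 and 129 in Meis1cko and 74.7, 90.5 and 84.3 in control replicates 1 to 3, a log2 fold change of 0.88 (SE 0.22). Its other probe set had 0.40 (SE 0.15). Esm1, a gene of sprouting endothelial tip cells, had 0.78 (SE 0.29), with a control mean of 13.5 below the 25th percentile of every array, so that this fold change is not exact, and 0.47 without Meis1cko replicate 1. Tfpi, the tissue factor pathway inhibitor gene, had -0.27 (SE 0.14) with the genotypes apart (3.43% of all probe sets in that direction). They were barely apart, with 182.7 in Meis1cko replicate 2 and 183.0 in control replicate 1. The other probe sets of Tfpi had -0.35, -0.54 and -0.55. On the last, the dimmest with a control mean of 25.2, the genotypes were also apart. Of 25 measured endothelial surface and coagulation genes, Adgrl4 and Esm1 were the 2 with an unadjusted p under 0.05, both higher (1.15% of all probe sets), 0 passed the adjusted threshold in either direction, and the median was -0.02. With the replicates paired, 3 were higher and 2 lower at an unadjusted p under 0.05 (6.99% in either direction).

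No marker of a neighbouring cell type passed the adjusted threshold of limma unpaired, and differences between the lists were not tested. Of 12 measured mural cell markers, the contractile genes Acta2, Tagln and Cnn1 had unadjusted p under 0.05 in limma and were higher (1.15% of all probe sets), with log2 fold changes of 0.76 (SE 0.20), 0.47 (SE 0.16) and 0.79 (SE 0.33), and the Meis1cko mice of all 3 lay above the controls (3.21% of all probe sets). Cnn1 was dim, with a control mean of 23.5, and without Meis1cko replicate 1 its log2 fold change was 0.39. Other probe sets of Acta2, both dim, had -0.26 and -0.06. The median of that list was 0.06. Of 10 measured fibroblast and perineurial markers 4 were lower at that level (1.17% of all probe sets), with a median of -0.43, led by Lum at -1.34 (SE 0.14), Col3a1 at -0.73 and Col1a2 at -0.58. Without control replicate 1, Col3a1 was -0.41, Col1a2 -0.30 and Col1a1, the other gene of the 4 and named after its values were seen, -0.35 in place of -0.54. Their summed intensity ran from 8903 to 11411 in Meis1cko and from 12029 to 19033 in control mice, ranges that do not overlap, and the part of this in the endothelial values was not tested. Of 10 measured macrophage and leukocyte markers 1, Mrc1 at -0.90 (SE 0.33), was lower at an unadjusted p under 0.05 (1.17% of all probe sets). The median of these markers was -0.34 and 9 of 10 lay below 0, where 45.8% of all genes lay above 0. With the replicates paired, 6 fibroblast and 4 macrophage markers were lower at an unadjusted p under 0.05 (6.99% of all probe sets in either direction), and Lum passed the adjusted threshold (adjusted p = 0.00717 from limma). The 7 measured red cell and platelet markers, which bear on blood left in the vessels, had a median of -0.13, and 1, the platelet gene Pf4 at -0.55, was lower with the replicates paired. Their summed intensity ran from 661 to 925 in Meis1cko and from 608 to 1577 in control mice, with the highest sum in control replicate 1, and their part in the values of Pecam1 and Vwf was not tested. Of the glial lists, 2 of 7 measured satellite glia markers, Ednrb at -0.67 and Kcnj10 at -0.36, and 1 of 6 measured Schwann cell markers, Pmp2 at -1.52, were lower at an unadjusted p under 0.05 (1.17% of all probe sets), with medians of -0.03 and -0.04. Pmp2 also passed the adjusted threshold with the replicates paired (adjusted p = 0.0252 from limma). Among 10 measured sensory neuron markers 1, the sodium channel gene Scn10a at 0.48, was higher at an unadjusted p under 0.05 (1.15% of all probe sets). The median of these markers was 0.06. Scn10a encodes Nav1.8, whose promoter region drives the Cre of Meis1cko mice, and the part of the transgene in its value was not tested. The defining markers of DRG tissue were bright, with summed intensities from 85756 to 99449 over those sensory neuron genes.

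**Figure D4:**
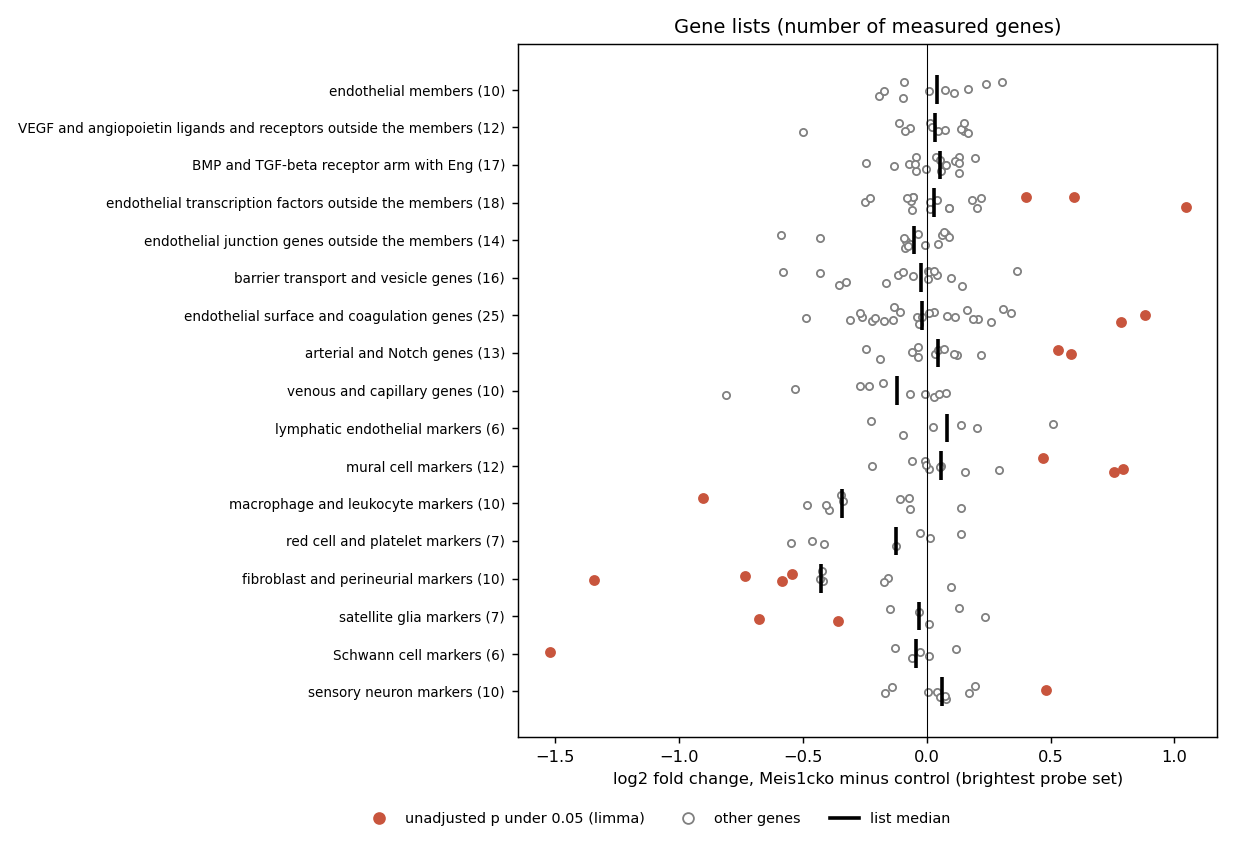
Log2 fold change (horizontal axis, Meis1cko minus control, brightest probe set) of each measured gene in the 10 endothelial genes and 16 further lists (rows), with filled points for an unadjusted p under 0.05 in limma and bars at the list medians. The 10 endothelial genes lie between -0.19 and 0.31 with a median of 0.04, while fibroblast and perineurial markers have a median of -0.43.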

How the data were processed

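Total RNA of DRGs from 3 Meis1cko and 3 control mice at P60 was measured on 1-colour Affymetrix mouse genome arrays, 1 per mouse. The authors read the images with the GeneChip Command Console and analysed them in GeneSpring, and deposited normalized intensity values on a linear scale. Their summarisation and normalization methods are not given in the sources used here. The methods name an RNeasy kit and the labels Trizol for the extraction.

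The log2 of each intensity was used without an offset, and 0 values were under the floor of 1. The 64 control probe sets were left out, and 45037 were tested in limma 3.58.1 (R 4.3.3, lmFit and eBayes), adjusted by Benjamini-Hochberg, with 0.05 as the threshold. GEO's platform annotation gives 34945 probe sets 1 gene symbol and 932 more than 1, and leaves 9160 without. The gene IDs of the 10 endothelial genes are all in the RefSeq table. The code was tested on simulated data. Motifs were searched with Python 3.11.15.

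The endothelial genes and the 16 further lists were chosen with earlier results of these data known. Named genes are the 10, their closest partners (Cdh5, Angpt1, Angpt2, Vegfa), Meis1, Sox17 and, per list described, up to 3 genes with the smallest p. List genes without a probe set of their own were not analysed here.

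Replicate numbers come from the labels, which do not say what they mark, nor whether the mice of a number share a litter. Deviations from the group means correlated across probe sets within replicates 1, 2 and 3 (r = 0.424, 0.535 and 0.766). Between Meis1cko replicate 1 and control replicate 2 r was 0.337, and between Meis1cko replicate 2 and control replicate 1 it was 0.319. Replicate 3 stands apart, so these values do not decide whether replicates 1 and 2 pair by number. The numbers were taken to pair the mice, and all paired values rest on this. Alternatives were the replicate block, arrays left out, array weights, quantile normalization, medians or 75th percentiles set equal, the methods' t-test, an offset of 16, a filter at the median, an eBayes trend and the mean over the probe sets of a gene.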

Additional observations from a re-analysis of the deposited data

How the results depend on the processing

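Under 19 alternatives, 0 of 188 values of the 10 endothelial genes passed the adjusted threshold, so that the counts of genes higher and lower were 0 under each of them, the replicate block included, and pairing changed no call among the 10. In 17 of the 188 the sign changed, for 7 of the 10 genes. With array weights, Pecam1 was -0.016, Kdr 0.11 and Erg -0.11. With arrays left out, log2 fold changes ranged from -0.19 to 0.36 for Pecam1, 0.09 to 0.54 for Tek, -0.38 to 0.044 for Tie1, -0.23 to 0.10 for Kdr, -0.0089 to 0.26 for Flt1, -0.21 to -0.12 for Egfl7, 0.01 to 0.44 for Cldn5, -0.068 to 0.080 for Erg, -0.054 to 0.36 for Eng and -0.42 to 0.21 for Vwf. The sign changes among these came without Meis1cko replicate 3 (Pecam1, Kdr, Erg, Eng, and Vwf at 0.11), Meis1cko replicate 2 (Vwf at 0.03), control replicate 1 (Pecam1 at -0.18, Kdr at 0.05, Vwf), and both arrays of replicate 1 (Pecam1 at -0.01, Tie1), 2 (Flt1, Vwf at 0.03) or 3 (Erg at -0.06). The number of genes with an unadjusted p under 0.05 was 1 with the replicate block and 2 with array weights, without Meis1cko replicate 3 and without both replicate 3 arrays. Cldn5 was 0.59 with array weights.

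Over all probe sets, 4 were higher and 3 lower. These counts were 20 and 17 with the replicate block, 93 and 84 with array weights, 0 and 0 with the methods' t-test, 1 and 0 with the offset of 16, and between 0 and 17 higher and 0 and 9 lower with arrays left out. The number higher was 7 with quantile normalization and with centring on the 75th percentile, and 1 with the filter at the median, which leaves out Pecam1 and Tie1. The cause of these shifts was not tested. For the other gene lists, counts with the block and without replicate 3, and values with single arrays left out, were chosen after seeing the data. The 3 transcription factor and 3 mural genes higher at an unadjusted p under 0.05 were 3 and 3 in both. Lower macrophage markers were 4 with the block and 1 without replicate 3. Other counts moved from 0 without replicate 3, among them 1 lower transcription factor gene and 2 higher satellite glia markers. Dim signal limits Tie1, whose control mean was 23.9.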

Other observations

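Genes of arterial endothelium and Notch signalling held 2 with an unadjusted p under 0.05 among 13 measured, both higher (1.15% of all probe sets), and 0 passed the adjusted threshold of limma in either direction. The chemokine receptor gene Cxcr4, which leukocytes and neurons also express, measured 143, 168 and 128 in Meis1cko and 106, 89.6 and 96.1 in control replicates 1 to 3, a log2 fold change of 0.58 (SE 0.14). Notch4, the Notch receptor gene of endothelium, measured 40.4, 33.2 and 32.1 in Meis1cko and 26.8, 26.2 and 20.4 in control mice. Its log2 fold change was 0.53 (SE 0.16). This probe set was dim, with a control mean of 24.5 near the 25th percentile of the arrays (20.8 to 22.6). Each Meis1cko mouse was above each control mouse for both genes (3.21% of all probe sets), and the other probe sets of Notch4 had -0.06 and 0.32. The median of the list was 0.05.

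Of 10 measured venous and capillary genes, 7 had a log2 fold change below 0, with a median of -0.12 (45.8% of all genes lay above 0). Unpaired, 0 passed in limma at the adjusted threshold or at an unadjusted p under 0.05. With the replicates paired 1, Aplnr, was lower at an unadjusted p under 0.05 (6.99% of all probe sets in either direction). The apelin receptor gene Aplnr, of veins and capillaries, measured 70.4, 36.9 and 21.3 in Meis1cko and 105, 78.4 and 36.2 in control replicates 1 to 3, lower in the Meis1cko mouse of each pair (log2 fold change -0.81, SE 0.51, paired adjusted p = 0.129 from limma), and its other probe set had -0.04. Plvap, which encodes a protein of the diaphragms of fenestrated endothelium, had -0.58 (SE 0.34) and was likewise lower in each pair. Cav1, like Plvap one of the barrier transport and vesicle genes, had -0.43 (SE 0.23) and was lower in each pair too (15.7% of all probe sets). Abcb1a, an efflux transporter gene of barrier endothelium, had 0.37 (SE 0.19) and was higher in each pair (13.2% of all probe sets). Its dimmer probe set had 0.46 but was not higher in each pair, with -0.11 in replicate 3. Of 16 measured barrier transport and vesicle genes, 0 passed at either level unpaired, and with the replicates paired 1 was higher and 4 lower at an unadjusted p under 0.05 (6.99% of all probe sets). Among 6 measured lymphatic markers 0 passed at either level unpaired. With the replicates paired 1, Prox1, was higher at an unadjusted p under 0.05 (6.99% of all probe sets in either direction). Prox1 had 0.51 (SE 0.33). It was dim, with control levels between 14.2 and 24.9, and was highest in Meis1cko replicate 2 at 45.2. Its other probe sets had 0.01 and -0.07. Pdpn had -0.22 (SE 0.12) with the genotypes apart (3.43% of all probe sets in that direction).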
